A study of Mus musculus with 8 samples.

Results

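Of the 105600 merged H3K56ac peaks of muscle stem cells (MuSCs), 15930 lay in first introns away from promoters, a share of 15.1%. A peak was taken when it was on an autosome, narrower than 5000 bp, wholly inside intron 1 of a protein-coding transcript, more than 3000 bp from every annotated transcription start site (TSS), and free of any exon overlap in the GENCODE annotation of the mouse build mm10. The limits were met in steps. The list held 103492 autosomal peaks, 97157 of them under 5000 bp, 23326 of these wholly inside an intron 1, 16340 that also cleared the TSS limit, and 15930 that also cleared the exons. The position rule used no signal value, and the widest peak taken measured 4988 bp. The width limit alone left out 590 intron 1 peaks, the narrowest of 5001 bp and the widest of 30722 bp. The TSS limit alone left out 4813, and the nearest peak taken lay 3001 bp from a TSS.

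The study profiled H3K56ac, histone H3 acetylated at its lysine 56, by ChIP-seq in freshly isolated MuSCs, the stem cells of skeletal muscle, to learn where the mark lies and how it changes when the deacetylase SIRT6 is lost. The 8 libraries formed 4 groups of 2 replicates, an H3K56ac group and an input group for each of the genotypes Control and Sirt6mKO, all on a C57BL/6 background. The labels do not define Control. The study calls these cells wild type in places, and elsewhere describes controls of Sirt6mKO mice as floxed mice without Cre. In Sirt6mKO mice the floxed Sirt6 allele was removed by Cre recombinase driven from the Pax7 promoter. The deletion was thus limited to cells of the muscle lineage. The mice were males of 12 to 16 weeks, an age taken from the study's description of these experiments, since the labels give none. Cells carrying Sca1, CD45 or CD31 were depleted with magnetic beads before MuSCs were sorted by flow cytometry. The deposited list does not keep the genotypes or the replicates apart, so all values below describe the union, no difference between Control and Sirt6mKO could be computed, and a peak may come from either genotype. The list holds no count of reads, and the depth behind a peak is unknown. All 20 MuSC marker genes had a peak within 3000 bp of a TSS, against 14397 of 20780 autosomal coding genes (69.3%), 5 of 10 endothelial and 3 of 10 leukocyte markers, but also 9 of 10 markers of fibro-adipogenic progenitors and 17 of 18 sarcomere genes. The depletion step is aimed at endothelial cells, leukocytes and fibro-adipogenic progenitors, but the stated purity of the sort leaves room for some other cells, and their part in the peaks was not tested.

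First introns lie just downstream of promoters and are known to carry enhancers, which are stretches of DNA bound by transcription factors that raise transcription of a gene at a distance. Acetylated lysine 56 sits where the DNA enters and leaves the nucleosome, and the mark is found at active promoters and enhancers in mammalian cells. The study places a putative mouse downstream utrophin enhancer (DUE) in the first intron of Utrn, the gene of the dystrophin-related protein utrophin. It locates the human enhancer in the second intron.

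The sequences below are given to show E-box matches in peaks of genes that led a ranking (Rora, Arhgap24, Ext1 and Larp1), of the receptor gene Igf1r and of Utrn. The E-box CAGCTG, the site preferred by the myogenic factor MyoD and its relatives, is in capitals. Each is the 300-bp stretch with most CAGCTG inside the peak that held most of them in that gene, read 5′ to 3′ on the strand of the gene from the RefSeq copy of GRCm38, which is the build mm10. They were picked for this word and are not typical, since 42.4% of all first-intron peaks held it. The peaks they came from were all wider than the upper quartile of the class, 1392 bp.
Rora: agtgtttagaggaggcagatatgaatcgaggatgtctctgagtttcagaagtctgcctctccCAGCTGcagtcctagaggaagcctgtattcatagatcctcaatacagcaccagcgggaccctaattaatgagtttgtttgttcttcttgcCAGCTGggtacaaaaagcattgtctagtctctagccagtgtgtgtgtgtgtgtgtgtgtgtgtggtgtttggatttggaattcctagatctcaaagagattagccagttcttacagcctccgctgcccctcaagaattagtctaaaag
Arhgap24: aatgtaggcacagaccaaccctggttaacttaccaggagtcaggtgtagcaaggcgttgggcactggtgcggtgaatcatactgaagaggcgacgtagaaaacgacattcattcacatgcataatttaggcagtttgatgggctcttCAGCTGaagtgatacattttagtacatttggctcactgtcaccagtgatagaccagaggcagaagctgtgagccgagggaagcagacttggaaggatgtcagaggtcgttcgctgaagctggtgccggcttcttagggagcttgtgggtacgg
Ext1: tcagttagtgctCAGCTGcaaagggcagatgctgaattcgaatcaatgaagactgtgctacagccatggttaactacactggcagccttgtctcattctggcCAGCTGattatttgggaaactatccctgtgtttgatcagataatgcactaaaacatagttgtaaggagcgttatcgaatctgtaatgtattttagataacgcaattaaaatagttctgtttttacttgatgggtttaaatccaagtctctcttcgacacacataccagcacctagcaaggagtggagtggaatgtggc
Igf1r: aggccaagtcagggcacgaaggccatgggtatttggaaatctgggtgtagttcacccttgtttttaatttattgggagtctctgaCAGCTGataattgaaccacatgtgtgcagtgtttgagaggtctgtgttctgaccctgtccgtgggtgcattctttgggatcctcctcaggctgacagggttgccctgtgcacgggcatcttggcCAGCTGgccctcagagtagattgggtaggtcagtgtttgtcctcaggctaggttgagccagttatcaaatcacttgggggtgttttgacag
Larp1: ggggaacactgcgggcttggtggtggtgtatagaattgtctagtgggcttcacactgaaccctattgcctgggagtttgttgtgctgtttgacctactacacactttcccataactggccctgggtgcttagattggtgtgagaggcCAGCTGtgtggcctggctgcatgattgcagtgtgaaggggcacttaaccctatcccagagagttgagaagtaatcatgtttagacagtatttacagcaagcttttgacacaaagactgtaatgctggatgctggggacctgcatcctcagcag
Utrn: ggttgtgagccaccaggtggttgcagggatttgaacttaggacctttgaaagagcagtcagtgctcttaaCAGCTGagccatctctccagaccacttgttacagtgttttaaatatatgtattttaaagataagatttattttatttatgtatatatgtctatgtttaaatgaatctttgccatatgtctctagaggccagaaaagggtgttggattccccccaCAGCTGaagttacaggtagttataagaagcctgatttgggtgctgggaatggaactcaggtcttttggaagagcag

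The Rora stretch, chr9:68882009-68882308 on the plus strand, came from a peak of 3161 bp that held 5 matches and lay 226644 bp from the nearest TSS. The Arhgap24 stretch, chr5:102581326-102581625 (plus strand), came from a peak of 3887 bp with 3 matches, 95883 bp from a TSS. The Ext1 stretch, chr15:53260942-53261241 (minus strand), lay in a peak of 4404 bp with 4 matches, 60594 bp from a TSS. The Igf1r stretch, chr7:67982076-67982375 (plus strand), lay in a peak of 4860 bp with 4 matches, 27764 bp from a TSS. These peaks were therefore far from any annotated promoter, while the Larp1 stretch, chr11:58032838-58033137 (plus strand), lay in a peak of 4194 bp with 2 matches that began 5218 bp from a TSS. The Utrn stretch, chr10:12806402-12806701 (minus strand), came from the widest Utrn peak of 3684 bp, which held 4 matches, and 88.3% of the stretch was soft-masked as repeated sequence in the assembly, against 0% to 15.3% in the other sequences shown.

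First introns held more H3K56ac peaks per length than later introns or intergenic sequence. The comparison was made on eligible sequence, which is sequence outside exons and assembly gaps and more than 3000 bp from any TSS. The 233.8 Mb of eligible first-intron sequence held 68.1 peaks per Mb. The 466.6 Mb of later introns held 15323 peaks under the same limits, or 32.8 per Mb, and intergenic sequence held 25295, or 22.6 per Mb. The density in first introns was 2.08 times that in later introns (exact 95% interval 2.03 to 2.12, counting error only) and 3.02 times that in intergenic sequence (2.96 to 3.08). First introns had the higher density on all 19 autosomes, with ratios from 1.59 on chromosome 18 to 2.44 on chromosome 11. The first-intron density itself ranged from 51.2 peaks per Mb on chromosome 6 to 98.0 on chromosome 11. Peaks are not replicates of a condition, and no test between samples stands behind these ratios.

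In covered length the difference was of the same order. First-intron peaks covered 7.94% of their eligible sequence and later-intron peaks 3.71% of theirs. When peaks of every width and position were counted, 13.8% of eligible first-intron sequence lay under a peak, against 6.36% in later introns and 3.57% in intergenic sequence, and the first-intron share was higher than the later-intron share on 19 of 19 autosomes. The peaks themselves were alike in width. First-intron peaks had a median width of 840 bp with quartiles of 595 and 1392 bp, later-intron peaks of 815 bp and intergenic peaks of 839 bp. First-intron peaks often had another peak of the list nearby. The median gap to the nearest peak of any class was 338 bp, and 71.5% had one within 1000 bp, against 64.2% of later-intron and 63.6% of intergenic peaks.

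Beyond 10 kb peak density fell with distance from a TSS, so the classes were also compared at matched distance. In first introns it was 59.7 peaks per Mb at 3 to 5 kb from the nearest TSS, 90.4 between 5 and 10 kb, 79.2 between 10 and 20 kb, 60.6 from 20 to 50 kb, 36.5 from there to 100 kb and 27.3 farther out. A peak of the 3 to 5 kb bin that reached within 3000 bp was left out by the rule, and the share covered by peaks of every width and position was highest in this bin, at 19.8% against 16.8% at 5 to 10 kb. Later introns stayed between 23.9 and 37.6 peaks per Mb up to 50 kb. The ratio of first to later introns was 2.62 (2.50 to 2.74) between 5 and 10 kb, 1.61 (1.54 to 1.69) between 20 and 50 kb and 1.22 (1.12 to 1.32) between 50 and 100 kb. It held on all 19 autosomes in each of the bins up to 20 kb and on 18 at 20 to 50 kb, but on 10 of 19 at 50 to 100 kb and 8 of 19 beyond 100 kb, where the pooled ratio of 1.504 came with fewer peaks, 267 in first introns. With the later-intron densities weighted to the distances of first introns, the ratio was 2.05 (2.00 to 2.10).

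**Figure D1:**
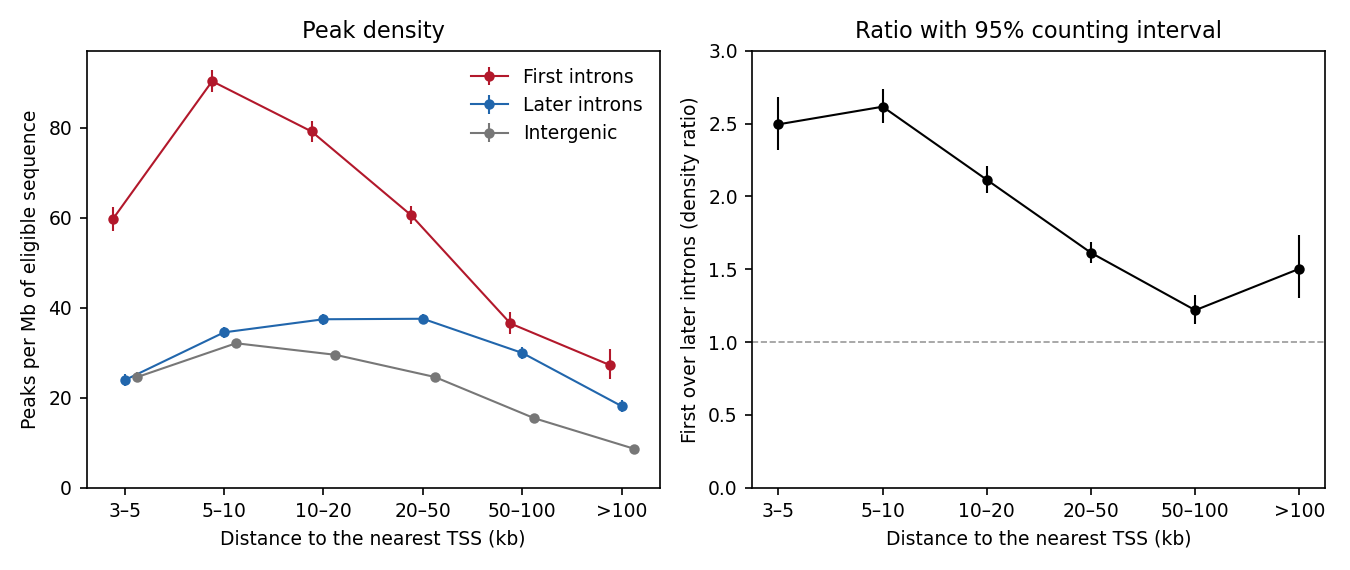
Left, H3K56ac peaks per Mb of eligible sequence (vertical axis) against distance to the nearest TSS in kb (horizontal axis), for first introns, later introns and intergenic sequence, with exact Poisson 95% intervals. Right, the ratio of first to later introns with its exact 95% interval and a dashed line at 1. First introns peak at 90.4 per Mb at 5 to 10 kb and lie above the other classes in every bin, and the ratio falls from 2.62 to 1.22 at 50 to 100 kb.

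Sequence upstream of a TSS did not match the first introns at equal distance. Intergenic sequence on the upstream side of its nearest TSS held 34.2 peaks per Mb at 5 to 10 kb and 24.6 between 20 and 50 kb from the TSS, and first introns exceeded it 2.65-fold (2.53 to 2.77) and 2.47-fold (2.36 to 2.58). Along the intron itself the density varied little. In 1326 genes whose longest intron 1 measured at least 50 kb, with Gm20388 (described below) left out, the density in 5 equal segments from the 5′ to the 3′ end was 53.2, 55.6, 55.8, 56.7 and 57.8 peaks per Mb. Measured from the 5′ end, the same introns held 76.4 per Mb between 5 and 10 kb, 72.1 between 10 and 20 kb and 70.6 between 40 and 50 kb. It was 42.5 per Mb at 100 to 150 kb and 28.8 at 200 to 300 kb, distances reached only by the longest introns. In 1755 genes with at least 20 kb of eligible sequence in both first and later introns, the covered share by peaks under 5000 bp was higher in the first intron in 902 genes, higher in the later introns in 518, and 0 in both in 335. Its median was 4.49% in first and 2.13% in later introns.

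First-intron peaks were found mostly in genes with H3K56ac at their promoter. A gene was taken to have a promoter peak when any peak lay within 3000 bp of its TSSs. First introns of the 7552 genes with a promoter peak and eligible sequence held 84.6 peaks per Mb, and those of the 2102 genes without held 4.35 per Mb, a ratio of 19.5 (17.0 to 22.3). Among genes with at least 5 kb of eligible sequence, 2895 of 4692 with a promoter peak hosted at least 1 first-intron peak (61.7%, Wilson 95% interval 60.3% to 63.1%), against 98 of 1082 without (9.06%, 7.49% to 10.9%). The density rose with the width of the widest promoter peak, from 22.2 per Mb under 2000 bp to 71.1 from 2000 to under 5000 bp and 147.3 from 5000 to under 10000 bp, and it was 147.4 per Mb at 10000 bp or more. The difference was not limited to sequence near the promoter. Beyond 20 kb from every TSS, first introns of genes with a promoter peak held 67.04 peaks per Mb and those without held 3.04, a ratio of 22.1 (17.4 to 28.4).

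The order of first and later introns also differed between these gene classes. In genes with a promoter peak, first introns exceeded later introns 2.08-fold (84.6 against 40.8 peaks per Mb). In genes without, first introns held 4.35 and later introns 5.57 peaks per Mb, a ratio of 0.782 (0.666 to 0.914). The latter ratio rests on 220 first-intron and 588 later-intron peaks, and a peak inside several genes was counted once for each.

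**Figure D2:**
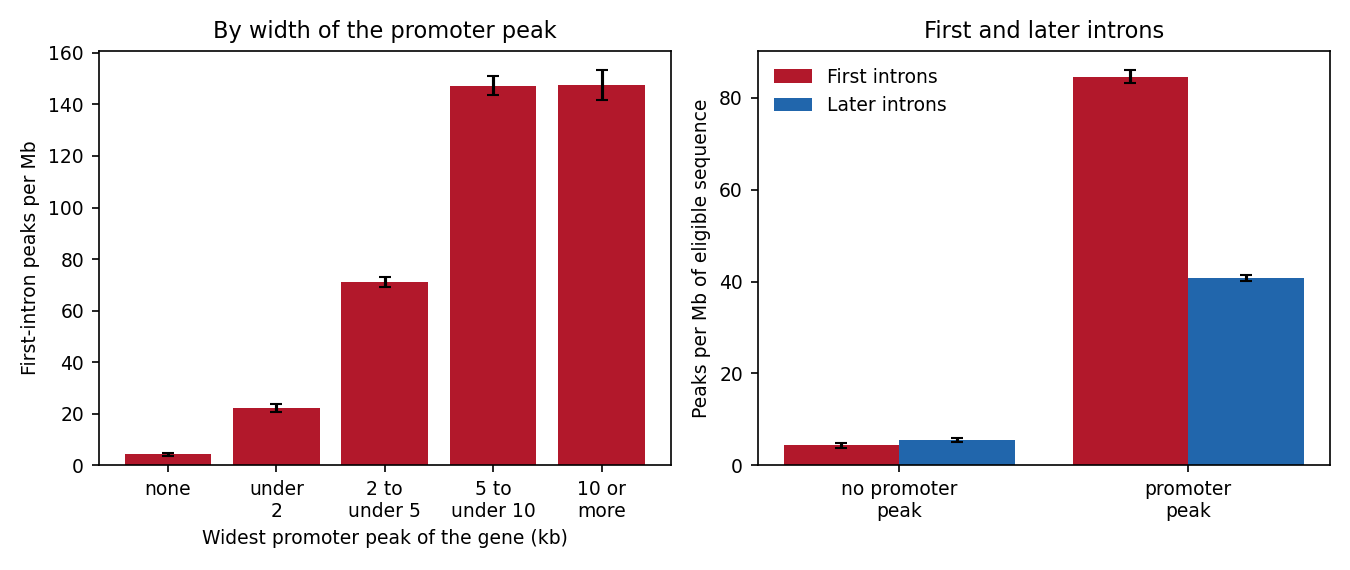
Left, bars of first-intron peaks per Mb by the width of the widest promoter peak of the gene in kb, with exact Poisson 95% intervals, rising from 4.35 without a promoter peak to 147.3 and 147.4 in the widest classes. Right, peaks per Mb in first and later introns of genes without and with a promoter peak, where first introns are lower (4.35 against 5.57) and higher (84.6 against 40.8).

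Peaks were unevenly shared among genes. Of 19532 autosomal coding genes with an intron 1, 9654 had eligible sequence there and 3314 hosted at least 1 first-intron peak. The median host had 2 peaks, 1057 hosts had 1, and the 430 hosts with 10 or more held 7887 peaks (49.5%). The 100 leading hosts held 22.1%. Of the peaks, 233 (1.46%) lay in intron 1 of more than 1 gene, and 4884 (30.7%) also lay inside a later intron of another coding transcript. Many stood in runs. In all, 10042 peaks (63.0%) belonged to 3387 runs of peaks less than 1000 bp apart, and the longest run, 19 peaks over 30.1 kb in Sdc2, the gene of the heparan sulfate carrier syndecan-2, was 85.0% covered. Runs of 15, 14 and 13 peaks were found in Zfp423, a zinc finger factor, in Fto, an RNA demethylase whose first intron is known for enhancers that act on distant genes, and in Dnmt3a, a DNA methyltransferase.

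The number of peaks grew with intron length but not in proportion. The share of genes with a peak was 31.1% for 5 to 10 kb of eligible sequence, 64.3% for 20 to 50 kb, 72.6% for 50 to 100 kb and 63.3% from 200 kb upward, while the density fell from 95.6 per Mb at 20 to 50 kb to 34.6 per Mb at 200 kb or more. Each of the 5774 genes with at least 5 kb was therefore ranked among the 200 genes nearest to it in eligible length. The expected number is the mean density of these neighbours times the length of the gene. The percentile is the share of them with a lower covered share, with ties counted at equal weight on either side, and its median over all genes was 38.8. Just 158 genes had 200 kb or more, so the neighbours of these genes included introns below 200 kb. There the density was higher, at 57.87 per Mb from 100 to 200 kb, and the longest introns were thus not compared with introns of like length alone.

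Rora stood out among the hosts. The gene, on the plus strand at chr9:68653786-69388246, encodes the nuclear receptor ROR-alpha, a regulator of the circadian clock and lipid metabolism. It had 174 peaks in 588.5 kb of eligible first-intron sequence, where 18.5 were expected from its 200 neighbours in length, which reach below 200 kb. They covered 41.1% of it, against a median of 0.68% and an upper quartile of 4.68% in those neighbours. Arhgap24 (chr5:102481391-102897937), which encodes a GTPase activating protein of the actin cytoskeleton, had 86 peaks where 11.2 were expected, and 41.6% was covered, a share above all 200 neighbours, although with one transcript per gene it was at the 85.0 percentile. Ext1, the gene of a heparan sulfate polymerase, had 67 peaks against 10.8 expected. Arhgap24 and Ext1 thus carried over 5 times the expected number over introns of more than 200 kb.

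Other leading hosts had varied roles. Rbms3, an RNA-binding protein, had 82 peaks where 13.99 were expected, Kcnma1, the large-conductance potassium channel, 77 where 13.5 were expected, and Pde10a, a cyclic nucleotide phosphodiesterase, 60 where 12.4 were expected. Ncam1, the neural cell adhesion molecule that muscle cells also express, had 50 peaks against 11.1, Cmip had 49 against 6.35, and Plcb4, a phospholipase C, had 47 against 9.90. Pde4d, another phosphodiesterase, entered the 10 leading hosts by number with 56 peaks, but its eligible first-intron sequence of 961.8 kb gave 35.2 expected, and the covered share of 7.66% was at the 81.0 percentile, and at 46.5 with one transcript per gene. The gene with the largest number, Gm20388 with 329 peaks, is a gene model on chromosome 8 whose intron 1 of 4384 kb contains 71 other coding genes whole. Of its peaks, 210 lay in no other gene's intron 1. Without first introns that hold another coding gene, an alternative chosen after seeing the data, 15487 peaks remained.

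Ranked by covered share, the leading genes had shorter introns. Larp1, an RNA-binding protein that controls translation of ribosomal protein mRNAs, had 14 peaks over 79.0% of 26.6 kb of eligible sequence (median of its neighbours 3.69%). Kcmf1, a ubiquitin ligase, followed with 77.2%, then Smg6, an endonuclease of nonsense-mediated decay, with 76.6%, Enpp2, the enzyme autotaxin that makes lysophosphatidic acid, with 74.0%, and Gna12, a G protein alpha subunit, with 70.3%. Ahdc1 (69.0%), the transcriptional coactivator Zmiz1 (68.8%), Sntb2 (59.8%) and the tetraspanin Tspan15 (59.1%) were also among the leading 10. All 10 lay at or above the 99.0 percentile of their neighbours. Smg6 and Enpp2 had no value with basic transcripts or with one transcript per gene, and Ahdc1 had none with the latter. Their places thus depend on the set of transcripts used. These introns held between 10 and 22 peaks each, and 9 of the 10 had no more than 15.

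**Figure D3:**
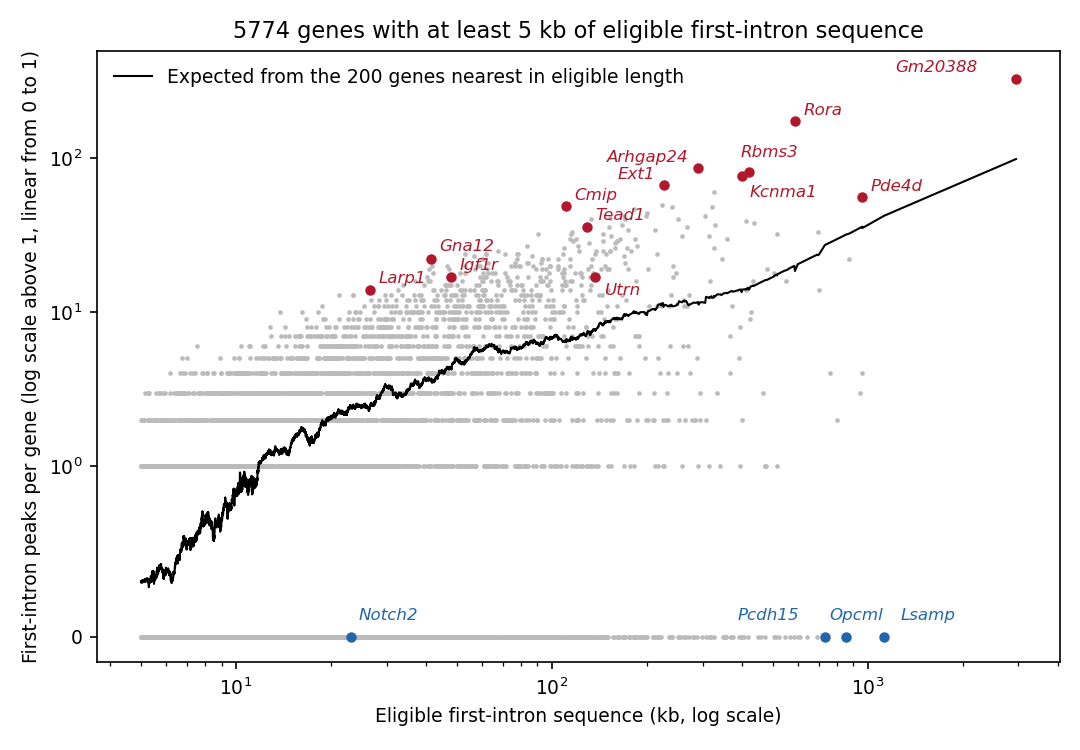
Number of first-intron peaks per gene (vertical axis, logarithmic above 1) against eligible first-intron sequence in kb (horizontal axis, logarithmic), with 1 grey point for each of 5774 genes and a black line for the number expected from the 200 genes nearest in eligible length. Rora (174 peaks) and Arhgap24 (86) lie far above the line, Utrn (17) lies above it, and the genes in blue have no peak.

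The 5 longest first introns without a peak were in Lsamp, Opcml, Kcnip4, Pcdh15 and Sgcz. Lsamp (1127 kb of eligible sequence) and Opcml (854.8 kb) encode adhesion molecules of the same neuronal family, Kcnip4 (847.6 kb) a potassium channel partner, Pcdh15 (732.3 kb) a cadherin of hair cells, and Sgcz (691.7 kb) zeta-sarcoglycan. The expected numbers were 42.3, 31.9, 31.7, 27.3 and 23.6 peaks, from 200 neighbours in length that reach below 200 kb. These are means, and the median covered share of the neighbours was just 0.717%. Each of the 5 genes was at the 18.5 percentile, tied with neighbours that also had no peak. Lsamp, Opcml and Kcnip4 had no promoter peak, and Pcdh15 and Sgcz had promoter peaks of at most 1445 and 774 bp. Of 16 genes of neuronal synapse and adhesion, all with at least 5 kb of eligible sequence, 3 hosted a peak (18.8%, against 51.8% of all ranked genes). The hosts were Ntm with 4, Dlg2 with 2 and Csmd1 with 1. The 16 genes had a median covered share of 0, and together they held 0.990 peaks per Mb, against 68.3 per Mb over all ranked genes. All 16 had over 100 kb of eligible sequence. Ranked genes of 100 to 200 kb held 57.87 per Mb, and those of 200 kb or more held 34.6. A promoter peak was present in 7 of the 16. Over all genes, first introns held 84.6 per Mb with a promoter peak and 4.35 without. Among those without a peak were Nrxn3, a neurexin, Nlgn1, a neuroligin, and Cntnap2, Lrp1b, Csmd3, Grm7, Ctnna2 and Dpp10.

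Receptor genes of growth factor and Notch signalling hosted a peak more often than these neuronal genes. Of 20 listed, 17 had at least 5 kb, all of them with a promoter peak. Of these, 14 hosted a peak (82.4%, against 51.8% of all ranked genes and 61.7% of those with a promoter peak). Together they held 89.98 peaks per Mb, near the 84.6 per Mb of all genes with a promoter peak. The median covered share was 18.3%, against 1.11% over all ranked genes. Igf1r, the receptor of insulin-like growth factor 1, had 17 peaks over 59.0% of 47.98 kb and exceeded all 200 neighbours. Bmpr1a, a receptor of bone morphogenetic proteins, had 14 peaks over 44.9%, and Fgfr2, a fibroblast growth factor receptor, 12 over 16.6%. Erbb4, in contrast, had none in 356.6 kb. Notch2 also had none in 23.1 kb, but its intron 1 of 33.96 kb was covered to 100% by peaks of any width and its widest promoter peak measured 53370 bp.

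Notch2 was not the sole gene of this kind. Of 3586 genes with an intron 1 of at least 20 kb, 76 had at least 90% of it under peaks of any width, and 23 of these had no first-intron peak under the rule. Lrig1, a negative regulator of receptor tyrosine kinases, was covered to 100%, Fam49a to 99.9%, Ampd3, an AMP deaminase, to 99.8% and Plxna2, a semaphorin receptor, to 99.5%, each with 0 such peaks. These were chosen after their values were seen. Megf10, a MuSC marker and receptor, was covered to 99.4% with 2 peaks under the rule. A count of 0 under the rule therefore did not mean that a first intron lacked H3K56ac.

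Among transcription factors picked for long first introns, 19 of 24 had at least 5 kb, all of them with a promoter peak. Of these, 16 hosted a peak (84.2%, against 51.8% of all ranked genes and 61.7% of those with a promoter peak). They held 430 peaks in all, 174 of them in Rora. After Rora came Zbtb20, a repressor of the zinc finger family, with 42 peaks where 11.5 were expected, and Tead1, a partner of the YAP coactivator in muscle, with 36 where 7.14 were expected over 40.3% of 129 kb. Nfib and Foxp1 had 26 and 30 peaks, and Runx2, a regulator of bone formation, and Nfic had none in 66.1 and 21.9 kb. Since these genes were chosen for their introns, their count describes them and no other class. In the matrix and basement membrane list, 9 of 12 genes with enough sequence hosted a peak (75%, against 51.8% of all ranked genes and 61.7% of those with a promoter peak). Lama2, the laminin chain of the muscle basement membrane, had 29 peaks in 144.8 kb (19.99% covered, 8.18 expected), Lamc1 had 11 and Col5a2 had 9. Col4a1 and Itga6 had none, and the whole intron 1 of Col4a1 was covered to 96.95% by peaks of any width whereas that of Itga6 was covered to 3.15%.

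Most MuSC identity genes had short first introns, so that only 7 of 20 had 5 kb of eligible sequence, and 4 of these hosted a peak (57.1%, near the 51.8% of all ranked genes). Met, the receptor of hepatocyte growth factor, had 8 peaks over 22.7% of 40.2 kb (84.5 percentile, 66.5 with one transcript per gene), Itgb1, the beta 1 integrin, had 4 over 25.4%, and Calcr, the calcitonin receptor of quiescent MuSCs, had 2 over 23.6%. Cd34, Sdc4 and Cdh15, a stem cell sialomucin, syndecan-4 and M-cadherin, had none, each in under 10 kb, but peaks of any width and position covered their whole first introns to 100%, 100% and 97.6%. Of the sarcomere genes 4 could be ranked, and Mybpc1 and Actn2 had 3 peaks each and Ldb3 had 1, while Neb had none in 22.6 kb. The list of AP-1, factors of the early stress and activation response, and of related factors had 12 genes, and 3 could be ranked. Of these, 2 hosted a peak (66.7%, against 51.8% of all ranked genes), with 19 peaks in the related factor Bach2, 1 in Atf3 and 0 in the related factor Maff.

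Few markers of other cell types had enough sequence to rank. Of the endothelial markers 6 could be ranked and 5 hosted a peak (83.3%, against 51.8% of all ranked genes). There were 16 in Mecom where 14.9 were expected, 9 over 29.6% of Tek, the angiopoietin receptor, 4 in Pecam1 and 0 in Emcn. Erg had 2 where 9.56 were expected and Flt1 had 1 where 2.28 were expected, neither with a promoter peak. The median covered share of the 6 was 2.14%. Of the leukocyte markers 1 of 4 hosted a peak, a single peak in Spi1, and Adgre1 had none in 40.2 kb. The fibro-adipogenic list had 1 gene with enough sequence, Col3a1, with 2 peaks over 41.5%.

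**Figure D4:**
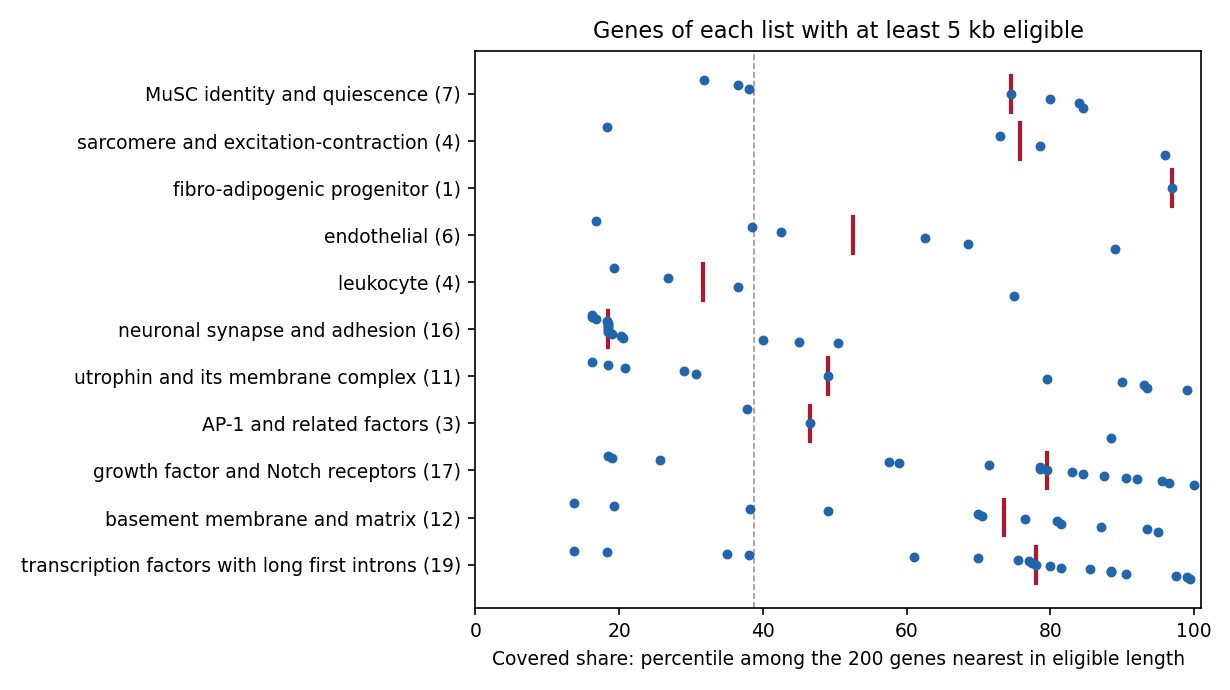
Percentile of the covered share of each gene among the 200 genes nearest in eligible length (horizontal axis), by gene list (vertical axis, with the number of genes ranked). Blue points are genes, red bars are list medians and the dashed line is the median of all ranked genes, 38.8. Neuronal genes cluster at a median of 18.5, and growth factor and Notch receptors have a median of 79.5.

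In Utrn (chr10:12382188-12869365, minus strand), the gene on which the study centred, 17 peaks lay in 137.4 kb of eligible first-intron sequence over 8 annotated first introns, where 7.62 were expected. They covered 13.8% of it, against a median of 1.56% and an upper quartile of 11.01% in genes of like length, which placed Utrn at the 79.5 percentile. These neighbours were not matched for promoter peaks, and the widest promoter peak of Utrn measured 10610 bp. First introns of genes with a promoter peak of 10000 bp or more were covered to 19.5%, and of those with any promoter peak to 9.89%. By number Utrn ranked 147 of 5774. The peaks were 335 to 3684 bp wide with a median of 910 bp. In intron 1 of the transcript Utrn-201 (chr10:12765333-12861567, 96.2 kb) there were 12 of them, all between 19.7 and 87.8 kb downstream of its TSS. They formed clusters. A pair lay at 19.7 and 22.3 kb, 5 peaks between 52.2 and 60.2 kb including the widest, 3 between 71.7 and 74.3 kb, and a pair at 85.9 and 87.8 kb. The other 5 lay in first introns of other transcripts, 252.1 to 298.4 kb downstream.

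Of the 28 peaks wholly inside intron 1 of Utrn-201, the rule left out 15 because they were within 3000 bp of a TSS, counting the start sites of internal transcripts, and 1 for its width alone. Peaks of every width covered 49.6% of the first introns of Utrn, the 94.0 percentile. Among those left out was the peak at chr10:12855343-12859870, 4528 bp wide, whose near end lay 1865 bp from the TSS of Utrn-201. It contains the amplicon that the study used to measure H3K56ac at the DUE by ChIP and quantitative PCR. The amplicon was located by an exact match of both primers in GRCm38, 174 bp at chr10:12857742-12857915 and 3820 bp downstream of the TSS. It is shown on the minus strand with the primer sites in capitals, because it ties the site assayed in the study to the list. It is a PCR product and does not mark the limits of the enhancer.
Utrn DUE amplicon: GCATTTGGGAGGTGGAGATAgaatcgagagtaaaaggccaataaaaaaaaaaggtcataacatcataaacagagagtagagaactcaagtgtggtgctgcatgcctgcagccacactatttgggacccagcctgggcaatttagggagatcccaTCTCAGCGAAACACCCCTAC

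The membrane partners of utrophin varied widely. Sntb2 and Sntb1, the beta syntrophins, had 14 peaks over 59.8% of 41.98 kb and 15 over 21.3% of 111.1 kb. Dag1, the gene of dystroglycan, had 8 peaks over 40.5% of 41.8 kb, and Sspn, which encodes sarcospan, had 2 over 39.9% of 7.31 kb. Dtna and Dtnb, the dystrobrevins, had 1 each, and the sarcoglycan genes Sgcd, Sgce and Sgcz had none, in 208.6, 19.7 and 691.7 kb. Of 11 genes of the complex with enough sequence, 7 hosted a peak (63.6%, near the 61.7% of all ranked genes with a promoter peak, which all 11 had), the median covered share was 2.26% and 5 lay at or above the 75 percentile.

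The sequence under the peaks was compared with peak-free first-intron sequence. The central 300 bp of each of the 15930 peaks were set against 655502 tiles of 300 bp in eligible first-intron sequence that touched no peak, weighted to the G and C content of the peaks in steps of 5 percentage points. The G and C content of the peaks had a median of 45.0%, that of the tiles of 42.0%, and soft-masked repeats made up 20.9% and 30.1%. Of the peak centres, 42 (0.264%, Wilson 95% interval 0.195% to 0.356%) had the composition of a CpG island, with G and C content over 50% and a ratio of observed to expected CpG over 0.6, against 24.5% of promoter peaks.

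The E-box CAGCTG, shown in capitals in the sequences above, was found in 2546 peak centres, or 15.98% (15.4% to 16.6%), against 12.9% of the weighted tiles, a ratio of 1.24. CAGCTG reads the same on both strands. In windows with at most 10% of soft-masked bases, a comparison chosen after seeing the data, the shares were 20.7% and 16.9%, a ratio of 1.22. Within peaks wider than 1000 bp, the density was 0.665 matches per kb within 150 bp of the centre and 0.532 at 800 to 1000 bp from it. In peaks up to 1000 bp it was 0.563 and 0.482. Later-intron and intergenic peak centres held it in 17.7% and 17.5%.

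The AP-1 site, searched as TGANTCA, which covers both strands, was found at nearly the same share in peaks and in peak-free first-intron sequence. It was present in 1437 peak centres, 9.02% (8.59% to 9.48%), and in 8.94% of the weighted tiles, and the shares were 9.98% and 10.2% in windows with few soft-masked bases. Later-intron and intergenic peaks had it in 9.36% and 9.75%. Over whole peaks, 4622 (29.0%) held at least 1 site. Among the Utrn peaks, 6 held a TGANTCA, with up to 2 each, and the peak over the DUE amplicon, outside the rule, held 5. None of these lay in the amplicon itself, and the nearest was 261 bp from it. The match at chr10:12858246-12858252, 3483 bp downstream of the TSS of Utrn-201, lay inside the stretch spanned by the study's guide RNAs against the DUE. The study describes a consensus AP-1 site in its putative DUE. Absence of these letters in a stretch says nothing of binding by the factor.

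The other motifs were searched on both strands. The NFI half-site TTGGC was present in 42.6% (41.9% to 43.4%) against 39.4%, and the ETS site CCGGAAG in 1.19% (1.03% to 1.37%) against 0.961%. RBPJ (TGGGAA), the factor at the end of Notch signalling, was at 27.3% (26.6% to 27.95%) against 26.02%, and RUNX (TGTGGT) at 22.8% (22.1% to 23.5%) against 21.7%. FOXO (TGTTTAC) was at 4.72% (4.40% to 5.06%) against 4.09%. In windows with few soft-masked bases the intervals of both included the tiles, with RUNX at 23.1% (22.06% to 24.1%) against 22.14% and FOXO at 4.74% (4.25% to 5.28%) against 4.27%. TEAD (GGAATG), KLF and SP (GGGCGG) and CRE (TGACGTCA) had intervals that included the share of the tiles. The box CCAAT was less frequent, at 32.6% (31.9% to 33.3%) against 37.1%. The gap was smaller in windows with few soft-masked bases, at 33.6% (32.4% to 34.7%) against 35.1%. Later-intron peaks had CCAAT in 32.45%. Over the 2035 words of 6 bases that were compared, the ratio of peaks to weighted tiles ran from 0.604 to 1.34 with a median of 1.02, and CAGCTG ranked 22 from the top, behind 21 words that all contain CG on 1 strand or the other except AAAAAA.

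**Figure D5:**
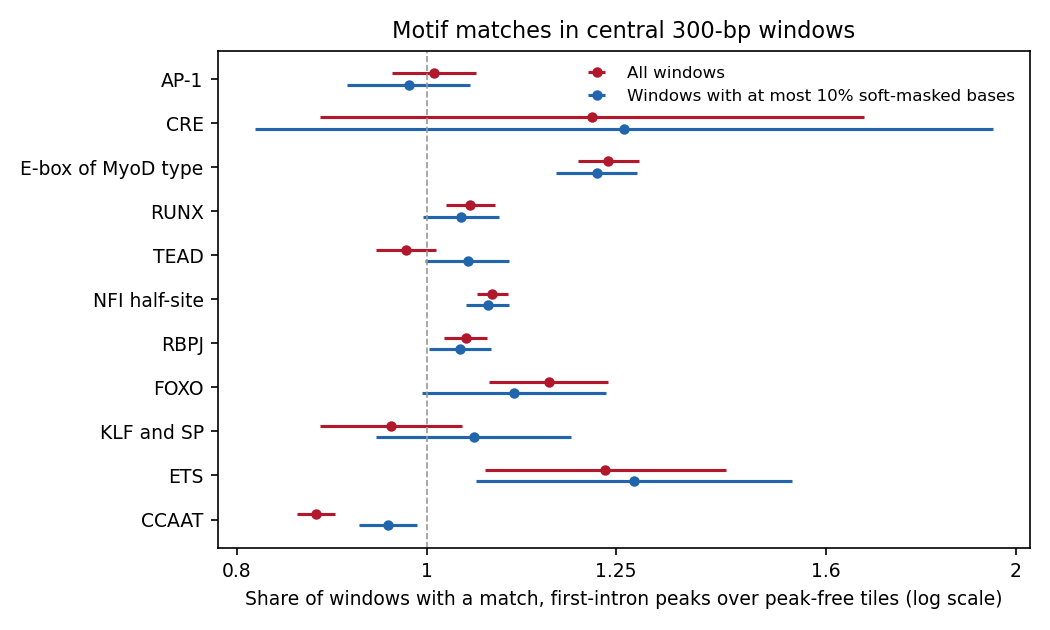
Share of central 300-bp windows with a motif match in first-intron peaks, divided by the share in peak-free first-intron tiles weighted to the same G and C content (horizontal axis, logarithmic), for 11 motifs. Red points are all windows, blue points are windows with at most 10% of soft-masked bases, and bars are Wilson 95% intervals of the peak share. Over all windows the MyoD-type E-box lies at 1.24, AP-1 at 1.01 and CCAAT at 0.878. In windows with few soft-masked bases CCAAT lies at 0.956.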

How the data were processed

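H3K56ac and input libraries of MuSCs, 2 replicates of each per genotype, were sequenced by the authors. Reads were trimmed with Trim Galore and aligned to mm10 with Bowtie, only reads with a unique position being kept, which lowers coverage of repeats, duplicates were removed with Picard, peaks were found with MACS2, and blacklisted regions were removed before intervals were merged with GenomicRanges. FastQC, SAMtools and deepTools are also named in the submitters' processing notes, which give no versions. The deposited list holds intervals with a score of 0 in every row, which is no measurement, and no column of samples, so depth and differences between groups could not be assessed. Columns of samples left unused numbered 0.

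Intervals were set against GENCODE vM21 and GRCm38 with Python 3.11.15, numpy 2.4.6 and scipy 1.17.1, figures were drawn with matplotlib 3.10.9, and the scripts were tested on simulated data. Intervals of 95% are exact for densities and ratios and Wilson for shares, and cover counting error only. The interval of the ratio weighted to TSS distance is instead a normal approximation on the log scale. The peaks and the 11 gene lists were chosen with earlier results of these data known. Named genes were Utrn, the 10 genes with most peaks, the 10 with the highest covered share among genes of at least 20 kb, the 10 with the largest excess over expectation, the 5 longest introns without a peak, and of each list the 3 with most peaks and those of at least 20 kb with none. Other genes were named after their values were seen. Some genes that the rule names are not reported here. A peak in intron 1 of several genes counted for each. Alternatives were other transcript sets, TSS and width limits, joined intervals, peak midpoints, 100 neighbours, whole introns and windows of 200 bp.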

Additional observations from a re-analysis of the deposited data

How the results depend on the processing

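Of 273 alternative values for 54 results, 186 stayed, 87 moved and 0 reversed, where a count stayed if it was within 1.5 times the reported one and any other value if it lay inside the 95% interval of the reported one. First introns stayed denser than later introns under every setting tried. The ratio of 2.08 was 2.13 with basic transcripts, 1.71 with intervals less than 1000 bp apart joined, 2.00 beyond 5000 bp from a TSS, 1.97 with one transcript per gene and 1.92 by peak midpoint. At matched distance these were 2.12, 1.69, 1.95, 1.93 and 1.85, and 2.14 with protein-coding TSSs and exons. The covered share of 7.94% was 8.39%, 3.63%, 7.77%, 8.25% and 8.82% under the same 5 settings, 8.30% with protein-coding TSSs and exons, 7.54% with intervals of at least 500 bp and 9.87% without a width limit. The promoter-peak ratio of 19.5 was 16.7 with basic transcripts, 11.6 with intervals joined and 23.4 beyond 5000 bp. Joining left 6091 peaks, whose width had a median of 890 bp. Intervals of at least 500 bp had a median of 938 bp. The AP-1 share of 9.02% was 6.16% in the central 200 bp and 9.98% in windows with few soft-masked bases, the latter chosen after seeing the data. Utrn moved from the 79.5 to the 94.0 percentile with all peaks over whole introns, and one transcript per gene gave it no value. Apart from what each setting leaves out by construction, the cause was not tested.

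Of 221 percentile alternatives for 47 genes, 161 stayed. Of 39 genes at 75 or above, 4 fell below it in some setting, which were Ldb3 (78.5 to 28.0 with all peaks over the whole intron), Pde4d (81.0 to 46.5) and Met (84.5 to 66.5) with one transcript per gene, and Spi1 (75 to 63.5 at the lowest). One transcript per gene gave no value for 10 named genes, basic transcripts for 3, and leaving out introns that hold another coding gene for 1, Gm20388. No paired analysis was possible because peak positions carry no values per sample. The unknown depth limits what the absence of a peak can show.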
